A study of Bos taurus with 3 samples.

Results

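RAB GTPases, SNARE proteins and the tethers, coats and sorting proteins that work with them were followed in the bovine mammary gland from late pregnancy into lactation. A gene was taken as a member when its symbol began with RAB, STX, VAMP, VPS or SNX and a digit, with STXBP, VTI1 or EXOC, or was SNAP23, SNAP25, SNAP29, NSF, NAPA, NAPB or NAPG, which gave 128 of the 9154 genes listed in the gene tables. The rule used names and no measured value. It also took in VPS72, which carries a VPS symbol but is known as a subunit of a chromatin complex. The tissue was mammary gland of Holstein cows of the second parity at 35 days before (−35 d), 7 days before (−7 d) and 3 days after (+3 d) parturition. Per the study's methods, each day had its own group of 6 cows, so differences between the animals cannot be told apart from day. For each day, tissue from the 6 cows went into a single pool, and 1 digital gene expression (DGE) library was sequenced per pool. No spread between cows could therefore be estimated. The sample labels give only the day, and no genotype, strain beyond the Holstein breed or treatment of the groups is stated. Day relative to parturition was the only factor compared. Per the study's methods, the state of the gland changed with it, from dry at −35 d to colostrum production at +3 d.

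Membrane traffic runs on small vesicles that bud from one compartment and fuse with the next. RAB GTPases, when bound to GTP, mark each compartment and recruit tethers such as the exocyst, and SNARE proteins on vesicle and target membrane (VAMPs on one side, syntaxins and SNAP proteins on the other) then zip together and drive fusion, helped by Sec1/Munc18 proteins and later taken apart by NSF and its SNAP adaptors. Sorting nexins and retromer return proteins from endosomes, and the ESCRT machinery with its ATPase VPS4 forms multivesicular endosomes. In the secretory cells of the lactating gland, caseins and lactose leave by exocytosis at the apical membrane.

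The 3 libraries held 5593237 to 5914422 clean tags, of which 2314092 to 3097468 lay on genes. A tag is the 21 bases at a CATG site of a transcript, and the deposited level is in TPM, here the gene's tags scaled to 1000000 clean tags and not per transcript length, so levels of different genes were not ranked as molecule numbers. A total of 5 milk protein genes that each held over 1% of a library took 0.348% of all clean tags at −35 d, 4.13% at −7 d and 22.6% after parturition. Scaling by TMM, which is less moved by such genes, raised the log2 ratio of every gene with tags in both libraries. The shift was 0.19 in stage I (−7 d against −35 d), 0.31 in stage II (+3 d against −7 d) and 0.50 over the whole span (+3 d against −35 d). Each count of calls below is given on both scalings. A gene was called at a Benjamini-Hochberg adjusted p (FDR) of at most 0.001 and a difference of at least 2-fold by the exact Audic-Claverie test. The test and the 95% intervals cover counting error only, and they treat each tag as an independent molecule. PCR copies of a tag are not independent, so p may be too small and the intervals too narrow. With 1 library per time point there is no replicate check. Every call therefore compares libraries, not conditions. In bulk tissue, fewer cells of a type and less RNA per cell cannot be told apart.

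The luminal epithelial markers were present at every time point (8 of 10 listed), and their summed level was 3783 TPM at −35 d, 28208 at −7 d and 164282 at +3 d, carried by the caseins and alpha-lactalbumin. The keratin KRT8 stood at 297, 157 and 164 TPM and the adhesion protein EPCAM at 498, 293 and 210 TPM at −35 d, −7 d and +3 d. The adhesion protein CDH1 stood at 8.79, 1.97 and 2.91 TPM and the transcription factor ELF5, highest at −7 d, at 271, 353 and 155 TPM. Macrophage markers (7 of 8 listed) summed to 324, 252 and 457 TPM, with CD68 at 5.92, 0.894 and 2.05 TPM, CD163 at 7.78, 1.97 and 19.8 TPM and C1QB at 105, 99.2 and 196 TPM, and myoepithelial and smooth muscle markers (7 of 7) to 718, 391 and 788 TPM. Fibroblast markers (5 of 6) summed to 7618, 5728 and 8677 TPM, adipocyte markers (4 of 4) to 183, 110 and 265 TPM, endothelial markers (4 of 5) to 51.6, 33.8 and 42.6 TPM, and T cell markers (6 of 6) to 162, 107 and 105 TPM. Markers of B cells (2 of 6 listed), neutrophils (2 of 5) and erythrocytes (2 of 3) summed to at most 15.6 TPM in any library. The part of these cells in the results below was not tested.

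At −35 d 123 of the 128 members were listed, and 119 in each of the later libraries, with 113 listed in all 3. Over 3 tags in each library were counted for 109 members, and the median member had 141, 101 and 91 tags. Together the members took 4697 TPM at −35 d, 4077 TPM at −7 d and 3340 TPM at +3 d. Their share of all tags on genes was 1.16%, 0.985% and 0.630%, and with the 5 milk protein genes left out it was 1.17%, 1.09% and 1.10%. The −7 d and +3 d libraries therefore differed little in the share of the members among the other genes.

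**Figure D1:**
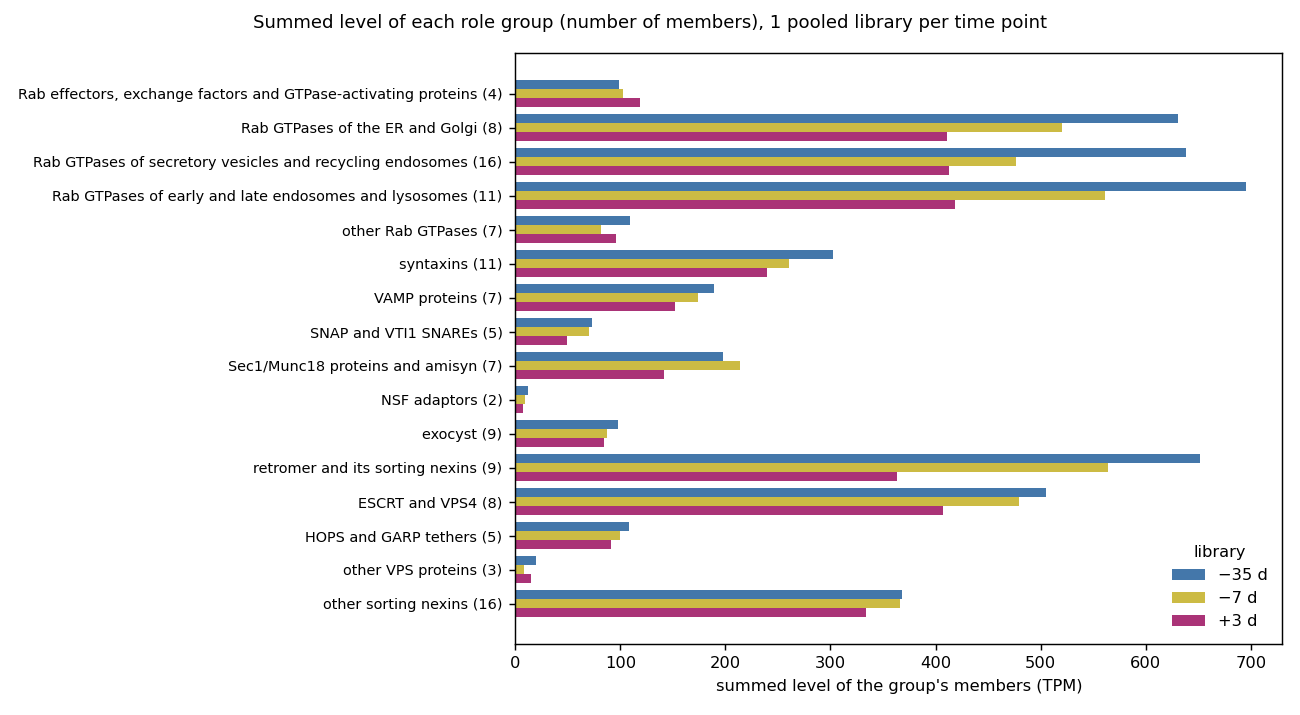
Horizontal bars give the summed level, in TPM, of the members of each role group in the −35 d, −7 d and +3 d libraries, 1 pooled library each and no error bars. Bars are longest at −35 d in all groups except the Rab effectors, which reach 119 TPM at +3 d, and the Sec1/Munc18 proteins, which are highest at −7 d at 214 TPM.

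The median log2 ratio of the members was −0.28 in stage I, −0.24 in stage II and −0.48 over the whole span, beside −0.22, −0.30 and −0.56 for all genes tested. After TMM scaling the same medians were −0.09, 0.07 and 0.02, beside −0.03, 0.01 and −0.06, so the sign for the members in stage II and over the whole span depended on the scaling. Among the 109 members with over 3 tags in each library, 45 were lower at each step, 11 were higher at each step, 20 were highest at −7 d and 33 were lowest at −7 d. Those orders are of values, and most of the steps did not pass the test. They were counted on clean tag totals only and not over all genes. On that scaling 62.0% of all genes tested lay below 0 in stage I and 64.9% in stage II, and with TMM 51.5% and 49.5%.

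In stage I, 2 of 126 members rose (1.59%) and 8 fell (6.35%), beside 2.62% and 6.45% of all genes tested, and with TMM scaling 3 rose and 4 fell, beside 4.22% and 3.9% of all genes. In stage II, 3 of 123 members rose (2.44%) and 1 fell (0.813%), beside 3.12% and 10.4% of all genes, and with TMM scaling 7 rose (5.69%) and 0 fell, beside 5.87% and 4.9%. Over the whole span 2 of 127 members rose (1.57%) and 13 fell (10.2%), beside 2.33% and 16.3% of all genes, and with TMM scaling 7 rose (5.51%) and 3 fell (2.36%), beside 6.23% and 4.94%. The members' shares lay near or below those of all genes. Of the 128 members, 24 were called in at least 1 comparison, 28 on either scaling and 100 on neither. The same counts over comparisons were not made for all genes, so whether they are high or low for the members is not known. The comparisons share libraries and are not independent of each other.

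**Figure D2:**
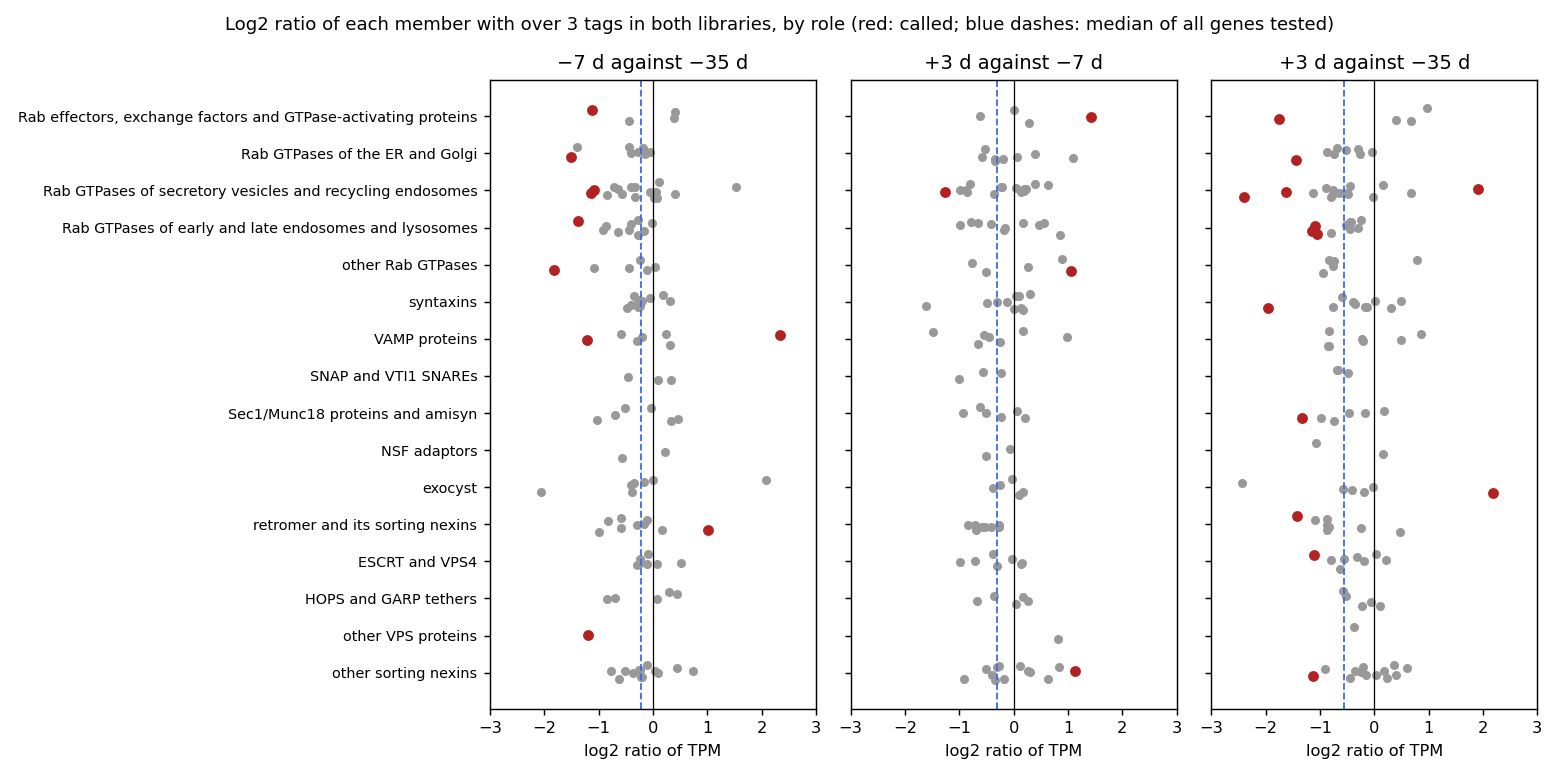
Each point is the log2 ratio of TPM, on clean tag totals, of a member with over 3 tags in both libraries, in rows by role, for stage I, stage II and the whole span. Red points were called, and the blue dashed line is the median of all genes tested, at −0.22, −0.30 and −0.56. Most members lie within 1 log2 unit of 0 in each panel.

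The Rab GTPases of the endoplasmic reticulum and Golgi, which guide newly made protein along the early secretory route, had 8 members. RAB1A, which acts between the endoplasmic reticulum and the Golgi, stood at 181 TPM at −35 d, 149 TPM at −7 d and 99.6 TPM at +3 d, and RAB2A at 184, 161 and 127 TPM. RAB1B stood at 68.5, 51.8 and 40.9 TPM, and RAB18, found on lipid droplets and the endoplasmic reticulum, at 46.2, 34.1 and 44.6 TPM. None of these 4 was called. The level of RAB1A differed by a log2 ratio of −0.86 over the whole span (95% interval −1.01 to −0.72), short of 2-fold.

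RAB2B, the less counted paralog of RAB2A and also a Golgi protein, was at 20.97, 7.33 and 7.70 TPM at −35 d, −7 d and +3 d. It was high at −35 d and lower in both later libraries. The stage I log2 ratio was −1.52 (95% interval −2.06 to −0.996, adjusted p 5.1e-09 by the exact Audic-Claverie test), a call made on both scalings. Stage II gave 0.07 (−0.57 to 0.72), with no call. All 8 members of this role had log2 ratios below 0 in stage I and over the whole span on clean tag totals, and 5 of 8 after TMM scaling in both. Of all genes tested, 62.0% and 73.2% lay below 0 on clean tag totals and 51.5% and 52.6% with TMM.

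Among the Rab GTPases of secretory vesicles and recycling endosomes (16 members), RAB15 had the lowest whole-span log2 ratio of those with over 3 tags in both libraries. It stood at 48.7 TPM at −35 d, 22.2 TPM at −7 d and 9.24 TPM at +3 d, from 288, 124 and 54 tags, and was lower at each step. RAB15 is known from recycling of endocytosed receptors. It fell 5.27-fold over the whole span (log2 ratio −2.40, 95% interval −2.85 to −1.97, adjusted p 6.1e-38 by the exact Audic-Claverie test), and by log2 ratios of −1.14 in stage I and −1.26 in stage II. The whole-span call was made on both scalings (−1.90 with TMM), and the calls of the single stages on clean tag totals but not with TMM (−0.95 and −0.96).

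RAB10 and RAB8A, close relatives that move vesicles from the Golgi and endosomes to the cell surface, were called in different comparisons, and the difference between them was not tested. RAB10 was at 74.9, 48.1 and 24.1 TPM and fell over the whole span (log2 ratio −1.63, 95% interval −1.92 to −1.36, adjusted p 2.6e-35 by the exact Audic-Claverie test), on both scalings. RAB8A was at 40.4, 19.1 and 21.7 TPM. It fell in stage I (log2 ratio −1.08, −1.42 to −0.74) on clean tag totals, a call that was not made with TMM, and gave 0.18 (−0.20 to 0.57) in stage II. RAB8B, a further relative, was at 30.4, 16.98 and 19.3 TPM and was not called.

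RAB26, a Rab of secretory granules in gland cells, was the member of this role that rose. It was counted at 11, 30 and 41 tags, or 1.86, 5.36 and 7.01 TPM, lowest at −35 d. The whole-span log2 ratio was 1.91 (95% interval 0.93 to 3.02, adjusted p 6.7e-05 by the exact Audic-Claverie test), with the call made on both scalings, while stage I gave 1.53 with an adjusted p of 0.0058 in the same exact test and no call. RAB4B, of early recycling endosomes, was at 28.7, 29.9 and 46.0 TPM and was called higher over the whole span with TMM but not on clean tag totals (log2 ratio 1.18, beside 0.68 on clean tag totals). It lies outside the rule for named genes and was chosen after its values were seen.

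RAB27A, known from regulated exocytosis, stood at 22.3, 24.1 and 13.2 TPM and RAB25, an epithelial Rab of recycling endosomes, at 29.4, 38.98 and 21.6 TPM. RAB3A, best known from synaptic vesicles, was at 5.24, 3.93 and 3.08 TPM. None of these 3 was called. RAB27B had 6, 6 and 0 tags and was not called. With its 0 tags set to a floor of 3, it was 1.98-fold lower at +3 d than at −35 d, which leaves out counting error. RAB11A was at 22.99, 21.99 and 22.8 TPM with a whole-span log2 ratio of −0.02 (−0.37 to 0.34), beside RAB11B at 173, 116 and 100 TPM with −0.79 (−0.94 to −0.64), neither called. RAB3D and RAB6A were not listed in the gene tables.

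The Rab GTPases of early and late endosomes and lysosomes (11 members) had whole-span log2 ratios below 0 for 10 of the 10 with a tag at −35 d or +3 d on clean tag totals, and for 5 of 10 with TMM, beside 73.2% and 52.6% of all genes. RAB5C, which marks early endosomes, had the highest mean level of all members at 229, 190 and 110 TPM. It was lower at each step and fell over the whole span (log2 ratio −1.06, 95% interval −1.20 to −0.92, adjusted p 6.7e-55 by the exact Audic-Claverie test). Its paralog RAB5A, at 78.6, 57.9 and 36.8 TPM, fell by nearly the same ratio, −1.10 (−1.34 to −0.86), and RAB22A, another early endosome Rab, at 28.4, 25.4 and 12.8 TPM, by −1.15 (−1.56 to −0.75). None of these 3 calls was made with TMM scaling.

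RAB38, a Rab of lysosome-related organelles, was at 8.79, 3.40 and 6.16 TPM, lowest at −7 d. It fell in stage I (log2 ratio −1.37, 95% interval −2.21 to −0.59, adjusted p 0.00088 by the exact Audic-Claverie test) on clean tag totals but not with TMM. RAB7A, which directs late endosomes to lysosomes, was not called at 160, 158 and 119 TPM. RAB9B had 0, 3 and 0 tags, which is at the floor, and no ratio is given. RAB5B was not listed.

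Among the Rab effectors, exchange factors and GTPase-activating proteins (4 members), the members went opposite ways. RAB11FIP3, an effector that ties RAB11 vesicles to motor proteins, was at 24.2, 11.1 and 7.18 TPM. It fell in stage I (log2 ratio −1.13, −1.58 to −0.69), on clean tag totals but not with TMM, and over the whole span (−1.75, −2.28 to −1.25) on both scalings. RAB3IL1, an exchange factor that loads GTP onto Rabs of the RAB3 and RAB8 kind, was at 10.5, 7.69 and 20.5 TPM. It rose in stage II (log2 ratio 1.42, 95% interval 0.90 to 1.95, adjusted p 3.4e-08 by the exact Audic-Claverie test) on both scalings. Over the whole span RAB3IL1 was called higher with TMM but not on clean tag totals (1.47, beside 0.97). RAB3IP, an exchange factor of RAB8, was at 25.7, 33.6 and 41.1 TPM and was called higher over the whole span with TMM but not on clean tag totals (1.17, beside 0.68). RAB3IP lies outside the rule for named genes and was chosen after its values were seen. RAB3GAP1, the catalytic subunit of a GTPase-activating complex, was at 38.04, 50.1 and 50.3 TPM and was not called.

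Of the other Rab GTPases (7 members), RAB40C, part of a ubiquitin ligase, was at 23.3, 6.62 and 13.7 TPM, lowest at −7 d. It fell 3.53-fold in stage I (log2 ratio −1.82, 95% interval −2.38 to −1.29) and rose 2.07-fold in stage II (1.05, 0.47 to 1.65), both on both scalings. On clean tag totals it was the 1 member called in opposite directions in the 2 stages, and with TMM VAMP3 and VPS72 were as well. RAB24, known from autophagy, was at 29.6, 27.5 and 50.8 TPM. It was called higher in stage II and over the whole span with TMM but not on clean tag totals, at log2 ratios of 1.19 and 1.28 beside 0.88 and 0.78 on clean tag totals, and was chosen after its values were seen.

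**Figure D3:**
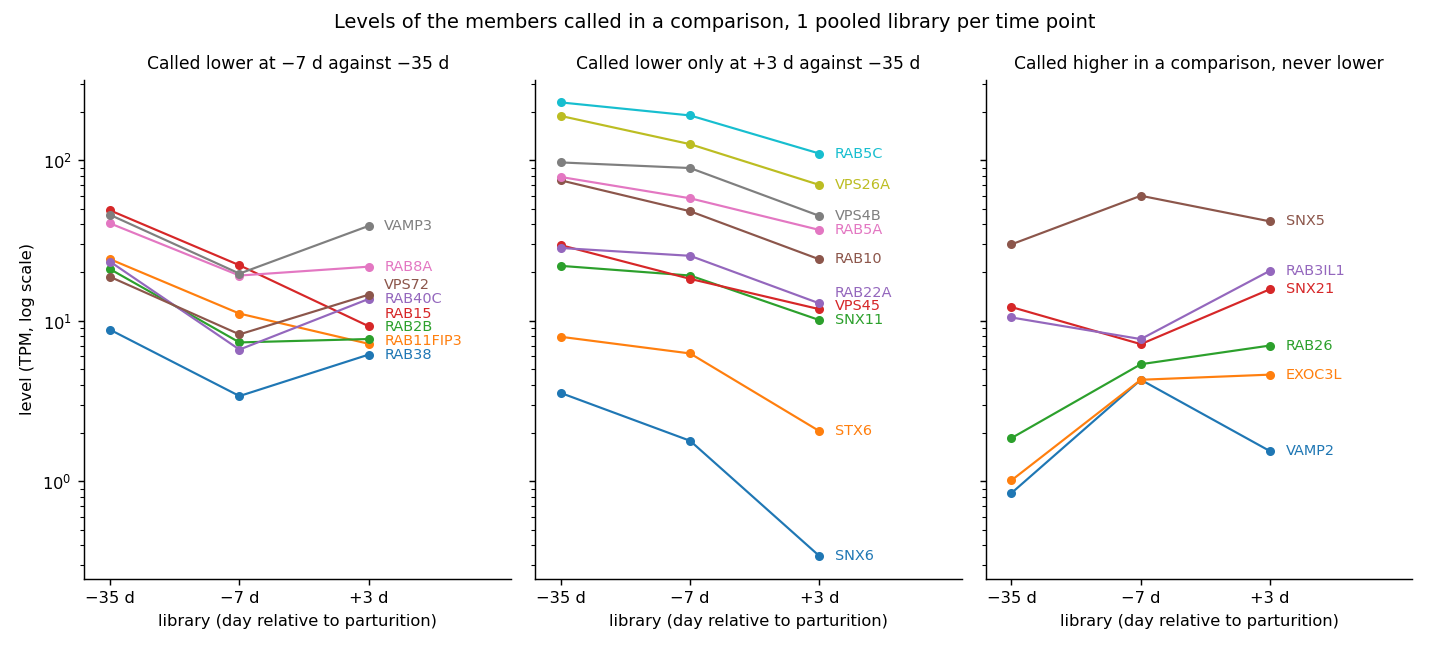
Lines join the level, in TPM on a log axis, of each member called on clean tag totals in the −35 d, −7 d and +3 d libraries, 1 pooled library each. The left panel holds the 8 members that fell in stage I, of which RAB40C later rose and RAB15, RAB2B and RAB11FIP3 were also called over the whole span. The middle panel holds the 10 members called lower over the whole span only, and the right panel the 6 that rose and never fell. SNX6 rests on 2 tags at +3 d.

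The vesicle SNAREs of the VAMP family (7 members) included 1 that fell and 1 that rose in stage I. VAMP3, of recycling endosomes, was at 45.7 TPM at −35 d, 19.7 TPM at −7 d and 39 TPM at +3 d, so that the −7 d library stood apart from both others. It fell in stage I (log2 ratio −1.21, 95% interval −1.55 to −0.89, adjusted p 1.1e-13 by the exact Audic-Claverie test) on both scalings, and in stage II its ratio was 0.99 (0.65 to 1.33), just short of the 2-fold limit, with a call at 1.30 after TMM. The summed levels of the macrophage, myoepithelial, fibroblast, adipocyte and endothelial markers were also lowest at −7 d, as given above. Not every marker did so, as CD14, MYLK, OXTR, LUM and LEP were lowest at −35 d and KRT14, ADIPOQ and KDR at +3 d. Of 7 macrophage markers, 3 (CD68, CD163 and CSF1R) fell in stage I on both scalings, beside 6.45% of all genes on clean tag totals and 3.9% with TMM. In stage II 3 (CD14, CD163 and CSF1R) rose on clean tag totals, beside 3.12% of all genes. With TMM 4 rose in stage II, C1QB being the further one, beside 5.87%. Of 7 myoepithelial and smooth muscle markers, 2 fell in stage I (1 with TMM) and 3 rose in stage II (4 with TMM). Of 4 adipocyte markers, 1 fell in stage I (0 with TMM) and 1 rose in stage II on both scalings. Of 5 fibroblast markers, 0 were called in stage I and 1 rose in stage II on both scalings. None of the 4 endothelial markers was called in either stage. The part of these cells in the levels of VAMP3, RAB40C and RAB38 was not tested.

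VAMP2, best known from regulated exocytosis, was counted at 5, 24 and 9 tags, or 0.845, 4.29 and 1.54 TPM. The stage I log2 ratio was 2.34 (95% interval 0.92 to 4.09, adjusted p 0.00083 by the exact Audic-Claverie test). That call rested on few tags and was not made with Fisher's exact test or with tails that include the observed count. VAMP8, the most counted VAMP and a SNARE of exocytosis in exocrine glands, was at 88.3, 104 and 76.3 TPM and was not called. VAMP4 and VAMP7 stayed at or under 4.57 TPM in each library.

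The syntaxins (11 members) are the target-membrane SNAREs. STX6, of the trans-Golgi network and endosomes, was the single one called. It was at 7.95, 6.26 and 2.05 TPM, from 47, 35 and 12 tags, and fell over the whole span (log2 ratio −1.95, 95% interval −3.003 to −1.02, adjusted p 1.6e-05 by the exact Audic-Claverie test) on clean tag totals but not with TMM. STX4, the plasma membrane syntaxin, was at 95.9, 79.0 and 56.5 TPM, a whole-span log2 ratio of −0.76 (−0.96 to −0.57), and STX12, of recycling endosomes, at 41.8, 52.2 and 58.5 TPM, a ratio of 0.49 (0.25 to 0.73). Their intervals did not overlap, and neither was called. The Golgi syntaxin STX5 was at 17.2, 15.02 and 15.4 TPM. STX3, an apical membrane syntaxin of epithelia, had 0, 0 and 3 tags and is not given a ratio.

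No member of the SNAP and VTI1 SNAREs (5 members) was called. SNAP23, the widely expressed partner of plasma membrane syntaxins, was at 39.4, 41.8 and 28.2 TPM, with a stage II log2 ratio of −0.57 (−0.86 to −0.27). SNAP29 was at 7.10, 8.94 and 4.45 TPM, and VTI1B, of late endosomes, at 25.7, 18.8 and 15.9 TPM. SNAP25, the neuronal form, was at 0, 4 and 3 tags. Of the machinery that takes SNAREs apart, NAPG was at 10.8, 7.33 and 5.13 TPM and NAPB at 1.69, 1.97 and 1.88 TPM, neither called, and NSF and NAPA were not listed in the tables.

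Among the Sec1/Munc18 proteins, which clamp and guide syntaxins (7 members, with amisyn), VPS45 was called. It serves syntaxins of the trans-Golgi network and early endosomes, like STX6. VPS45 was at 29.6, 18.2 and 11.8 TPM and fell over the whole span (log2 ratio −1.33, 95% interval −1.75 to −0.92, adjusted p 7.9e-11 by the exact Audic-Claverie test) on clean tag totals but not with TMM. STXBP3, which binds STX4, was highest at −7 d, at 96.7, 134 and 70.0 TPM. Its log2 ratios of 0.47 (0.31 to 0.63) in stage I and −0.93 (−1.11 to −0.76) in stage II had intervals clear of 0 but stayed within 2-fold. STXBP2, at 23.5, 16.4 and 14.03 TPM, was not called.

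The exocyst tethers secretory vesicles at the plasma membrane, and its members (9 with related genes) were mostly few in tags. EXOC4 was at 36.01, 36.1 and 35.4 TPM, with a whole-span log2 ratio of −0.02 (−0.31 to 0.26), and EXOC7 at 27.4, 21.5 and 24.1 TPM. EXOC3L, which RefSeq names EXOC3L1 and which resembles EXOC3, had 6, 24 and 27 tags, or 1.01, 4.29 and 4.62 TPM. It rose over the whole span (log2 ratio 2.19, 95% interval 0.88 to 3.75, adjusted p 0.00053 by the exact Audic-Claverie test) on both scalings. In stage I EXOC3L was called higher with TMM but not on clean tag totals (2.27, beside 2.08). EXOC3 itself had 22, 5 and 4 tags and a whole-span log2 ratio of −2.44 (−4.44 to −0.88), with an adjusted p of 0.00102 that just missed the threshold in the same exact test. EXOC1, chosen after its values were seen, had 11, 8 and 0 tags and was not called. With its 0 tags set to a floor of 3, it was 3.62-fold lower at +3 d than at −35 d, which leaves out counting error.

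Retromer and its sorting nexins (9 members) pull cargo receptors out of endosomes. In stage II all 9 had log2 ratios below 0, with a median of −0.58 beside −0.30 for all genes, and 7 of 9 with a median of −0.27 beside 0.01 after TMM. Of all genes, 64.9% and 49.5% lay below 0 in stage II on the 2 scalings, and no member of retromer was called in that stage. VPS26A, a core subunit, was at 189, 126 and 70.1 TPM and lower at each step. It fell over the whole span (log2 ratio −1.43, 95% interval −1.59 to −1.26, adjusted p 3.4e-72 by the exact Audic-Claverie test) on clean tag totals, and stayed short of the 2-fold limit with TMM. VPS29, another core subunit, was at 84.9, 78.1 and 47.9 TPM, and the third, VPS35, at only 2.20, 1.79 and 1.197 TPM. Tags of the 3 subunits do not give their molar ratio. SNX3, which recruits retromer, was at 205, 182 and 113 TPM and was not called.

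SNX5, a membrane-bending partner of retromer, went the other way in stage I. It was at 29.9 TPM at −35 d, 60.1 TPM at −7 d and 41.6 TPM at +3 d, highest at −7 d. The stage I log2 ratio was 1.01 (95% interval 0.74 to 1.28, adjusted p 2.2e-13 by the exact Audic-Claverie test), at the limit of 2-fold, and the call was made on both scalings. A further entry of the tables with the same name, LOC789829, predicted as a transcript of sorting nexin 5, stood at 105, 225 and 164 TPM. Tags that match several genes were left out of the counts, so tags shared by both entries would be missing from each, and the value of SNX5 is uncertain for that reason. How alike the sequences are was not tested. LOC789829 was named after its values were seen. SNX6, a close relative of SNX5, had 21, 10 and 2 tags and was called lower over the whole span on clean tag totals (adjusted p 0.00014 by the exact Audic-Claverie test), with no fold given at 2 tags.

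Of the ESCRT members and VPS4 (8 members), VPS4B, the ATPase that recycles ESCRT, was at 96.9, 89.4 and 45.0 TPM. Its level was close at −35 d and −7 d and low at +3 d. The whole-span log2 ratio was −1.11 (95% interval −1.32 to −0.89, adjusted p 2.2e-25 by the exact Audic-Claverie test), called on clean tag totals but not with TMM, and stage II gave −0.99 (−1.21 to −0.77) with no call. VPS4A was at 35.2, 29.3 and 22.6 TPM. VPS28, of ESCRT-I, was at 102, 107 and 118 TPM, and VPS24, of ESCRT-III and named CHMP3 in RefSeq, at 139, 114 and 112 TPM, neither called. No member of the HOPS and GARP tethers (5 members) was called.

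The other sorting nexins (16 members) had 1 member that fell and 1 that rose. SNX11 was at 21.98, 19.1 and 10.1 TPM and fell over the whole span (log2 ratio −1.12, −1.59 to −0.67) on clean tag totals but not with TMM. SNX21, of early endosomes, was at 12.2, 7.15 and 15.7 TPM, lowest at −7 d, and rose in stage II (log2 ratio 1.14, 95% interval 0.59 to 1.71, adjusted p 7.0e-05 by the exact Audic-Claverie test) on both scalings. SNX7, chosen after its values were seen, was at 14.5, 12.3 and 22.1 TPM and was called higher in stage II (1.15) and over the whole span (1.10) with TMM but not on clean tag totals. VPS72, the chromatin protein, was at 18.8, 8.22 and 14.5 TPM and fell in stage I (−1.19, −1.72 to −0.68) on both scalings. In stage II its log2 ratio was 0.82 with no call, and 1.13 with a call after TMM.

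**Figure D4:**
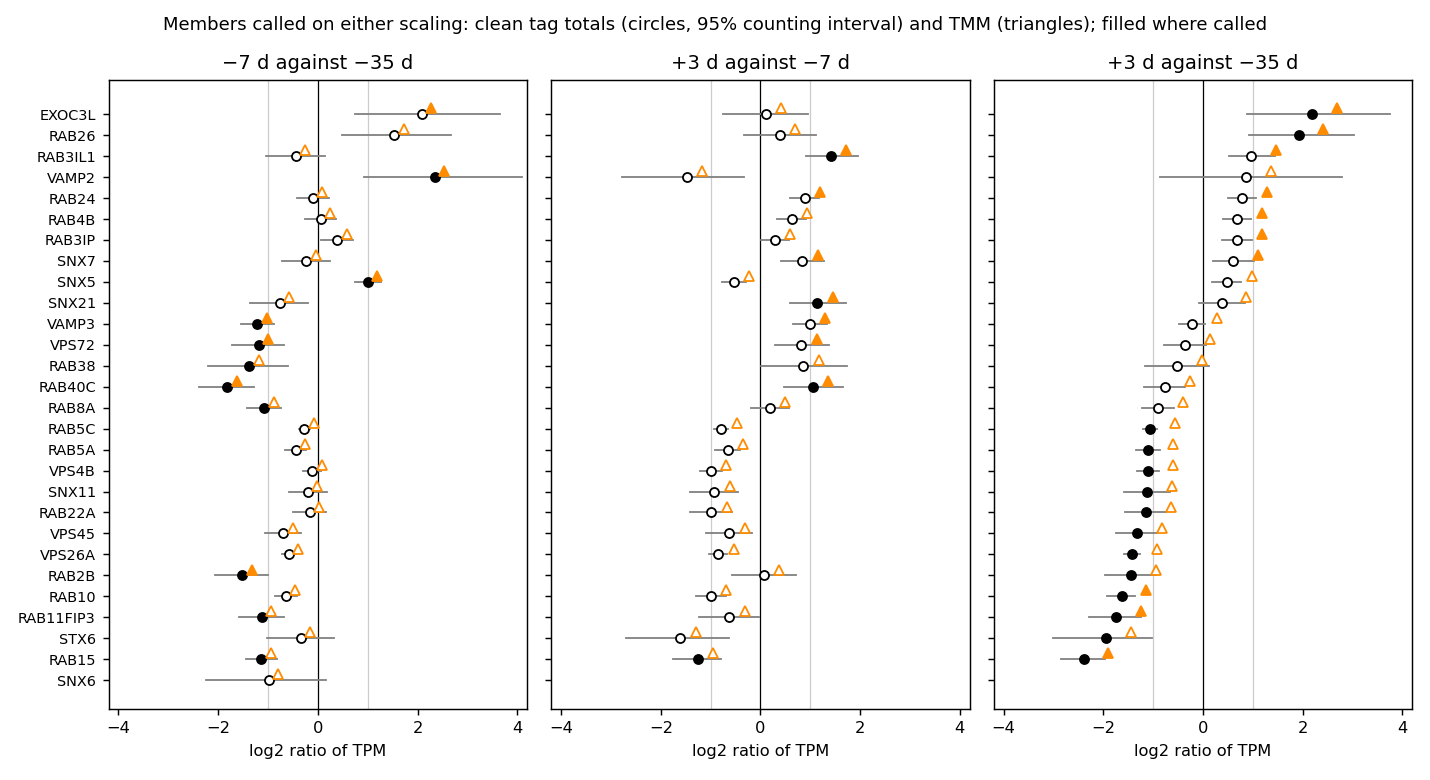
Log2 ratios of TPM of the 28 members called on either scaling are shown for stage I, stage II and the whole span, as circles on clean tag totals with 95% counting intervals and as triangles after TMM scaling, filled where called. Vertical grey lines mark the 2-fold limit, and a point is left out where a library held 3 tags or fewer. Over the whole span 10 of the 13 downward calls were made on clean tag totals but not with TMM, and 5 of the 7 upward calls after TMM were made with TMM but not on clean tag totals.

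Calls made on both scalings came from 13 members, a count that was not made for all genes. In stage I these were the higher SNX5 and VAMP2 and the lower RAB2B, RAB40C, VAMP3 and VPS72, and in stage II the higher RAB3IL1, RAB40C and SNX21. Over the whole span they were the higher EXOC3L and RAB26 and the lower RAB10, RAB11FIP3 and RAB15. Among the members not called on clean tag totals in any comparison and with over 3 tags in both libraries, 86 of 90 in stage I, 84 of 86 in stage II and 84 of 88 over the whole span lay within 2-fold on that scaling. Much of this follows from the selection, since a member past 2-fold stays uncalled only where it misses the FDR limit. The same count was not made for all genes.

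The genes of the same machinery with other symbols were counted in the same way. Of the other SNAREs, 9 of 11 were listed and none was called on clean tag totals, and USE1, a SNARE of the endoplasmic reticulum at 65.6, 124 and 62.4 TPM, was called higher in stage I with TMM but not on clean tag totals. None of the 6 listed SNARE regulators or the 6 listed Rab chaperones and prenylation genes was called on clean tag totals. Of all genes, 2.62% rose and 6.45% fell in stage I, 3.12% and 10.4% in stage II, and 2.33% and 16.3% over the whole span. Lists as short as these may hold no call at such shares, so the lack of calls is not read as stability. With TMM, SYTL2, a RAB27 effector at 20.5, 38.4 and 34.9 TPM, was called higher in stage I and over the whole span. RABAC1, a Rab acceptor at 161, 176 and 229 TPM, was called higher over the whole span on that scaling. Of all genes, 4.22% rose in stage I and 6.23% over the whole span with TMM.

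Of 16 listed Rab effectors and tethers, 1 rose in stage I (COG7, of the Golgi tether COG, at 20.1, 44.5 and 35.1 TPM, on both scalings) and 2 fell (COG8 and MLPH), beside 2.62% and 6.45% of all genes, and 3 fell over the whole span (COG6, COG8 and TRAPPC1), beside 16.3%. With TMM, COG7 was higher in stage I, beside 4.22% of all genes. Over the whole span COG7 was higher and COG8 lower on that scaling, beside 6.23% and 4.94% of all genes. No other call of the 16 was made with TMM. Of 13 listed further ESCRT genes, 1 fell in stage I (CHMP7), 1 in stage II (SNF8) and 5 over the whole span (CHMP1B, CHMP2B, CHMP4B, CHMP7 and SNF8), beside 6.45%, 10.4% and 16.3% of all genes. With TMM, CHMP7 was lower in stage I and over the whole span, beside 3.9% and 4.94% of all genes. CHMP2A, an ESCRT-III subunit at 55.1, 68.3 and 81.3 TPM, was higher over the whole span on that scaling, beside 6.23%.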

How the data were processed

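Each of the 3 libraries came from a single pool of mammary tissue. Per the study's methods, the authors removed adaptors, unknown bases and tags of 1 copy, matched the clean tags of 21 bases to CATG sites with their next 17 bases in transcripts of the bovine genome UMD 3.1, and deposited the number of unambiguous tags per gene as counts. The deposited TPM values were made by the authors from these counts and the clean tags of the library, and recomputing them from the counts left differences of at most 0.0050 TPM. The filtering and matching were not repeated. The smallest listed count was 2, and a gene not listed was given 0 tags, although it may have had tags of 1 copy or tags shared with other genes. The deposited summary of tag numbers and the table of single tags were not used for results.

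The 3 gene tables were joined by accession, and the symbol was the last name in brackets of the description. RefSeq (ARS-UCD2.0) held 116 of the 128 member accessions and was used for names only. Each pair of libraries was compared with the Audic-Claverie test (2 times the smaller tail, Benjamini-Hochberg adjustment over all genes with a tag in either library). The lower tail included the observed count and the upper tail did not, so p for a rise was smaller than with both tails alike. Calls were made at FDR 0.001 or below and a 2-fold or larger difference, where a level of 0 was replaced by 0.01 TPM. The 95% interval of a log2 ratio was converted from the exact binomial interval of the 2 counts. No ratio is given where a library held 3 tags or fewer, apart from a fold for RAB27B and EXOC1 with 0 tags set to 3. The scripts were tested on simulated data. As alternatives, libraries were scaled by TMM in edgeR, by size factors in DESeq2, or by totals that left out the genes over 1%. The test was exchanged for one whose tails both include the observed count, for Fisher's exact test, or for the exact test of edgeR. The last was run at assumed coefficients of variation of 0.2 and 0.4. The fold limit was raised to 3, genes under a mean of 5 TPM were dropped, 0.5 tags were added, and medians were also taken with counts under 3 set to 3. The members and gene lists were chosen with earlier results of these data known. Named genes (56) are the members called in a comparison, the 10 with the highest mean TPM, and members with known roles in secretion, with paralogs and complex partners beside them. The result of 1 member is not reported here. R 4.3.3 ran edgeR 4.0.16 and DESeq2 1.42.0, and Python 3.11.15 ran scipy 1.17.1, numpy 2.4.6 and pandas 2.3.3, with plots from matplotlib 3.10.9.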

Additional observations from a re-analysis of the deposited data

How the results depend on the processing

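The number of members called was 10 in stage I, 4 in stage II and 15 over the whole span. With DESeq2 size factors it was 6 (3 higher and 3 lower), 7 (7 higher and 0 lower) and 11 (8 higher and 3 lower), with TMM 7, 7 and 10, and with totals without the genes over 1% it was 9, 7 and 12 (6 higher and 6 lower over the whole span). The 3-fold threshold left 2, 0 and 7. With edgeR's exact test and an assumed coefficient of variation of 0.2 it was 0, 0 and 1 (RAB15), with 15, 14 and 27 members at an unadjusted p under 0.05, and with 0.4 it was 0, 0 and 0, with 3, 1 and 6. The median log2 ratio of the members changed sign in stage II with TMM (0.0691), DESeq2 (0.0843) and totals without the genes over 1% (0.0701), and over the whole span with TMM (0.0169) and DESeq2 (0.0349). Of the 29 calls of single members, 14 were made with TMM, 13 with DESeq2, 20 with totals without the genes over 1%, 28 with Fisher's exact test, 28 with inclusive tails, 9 at 3-fold and 29 with 0.5 tags added, and none changed direction under any of these. All 25 that could be tested at a mean of at least 5 TPM were kept. Of 137 uncalled ratios of named members, 4 were called with TMM and 5 with DESeq2, all higher. No paired analysis was possible because each time point has its own cows and 1 library, and no replicate could be left out. Which coefficient of variation fits these pools cannot be estimated from 1 library per time point.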

Other observations

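Shares of tags among close relatives within a library do not depend on the library total. They were computed after the levels were seen, and their 95% Wilson intervals cover counting error only. Among the SNX-BAR sorting nexins SNX1, SNX2, SNX5 and SNX6, SNX5 held 18.01% of 983 tags at −35 d (15.7 to 20.5), 34.6% of 970 at −7 d (31.7 to 37.7) and 32.1% of 757 at +3 d (28.9 to 35.5), while SNX2 held 49.2%, 31.2% and 34.5%. Tags of LOC789829, the further entry named sorting nexin 5, are not in these sums.

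Among VAMP2, VAMP3 and VAMP8, the share of VAMP3 was 33.9% at −35 d (30.7 to 37.2), 15.4% at −7 d (12.9 to 18.2) and 33.4% at +3 d (29.9 to 37.003), and VAMP8 held 65.5%, 81.3% and 65.3%. Among RAB8A, RAB8B and RAB10, the share of RAB10 was 51.4% (48.1 to 54.7), 57.1% (52.6 to 61.5) and 37.01% (32.3 to 42.0). RAB4B held 81.0% (75.1 to 85.7), 84.8% (79.1 to 89.1) and 93.7% (90.3 to 96.0) of the tags of RAB4A and RAB4B. RAB2B held 10.2% (8.66 to 12.1), 4.35% (3.22 to 5.85) and 5.70% (4.28 to 7.54) of the tags of RAB2A and RAB2B. VPS4B held 73.4% (70.2 to 76.3), 75.3% (71.9 to 78.4) and 66.6% (61.8 to 71.1) of the tags of VPS4A and VPS4B, and RAB11B 88.3%, 84.1% and 81.5% of those of RAB11A and RAB11B. The share of RAB5C among RAB5A and RAB5C was 74.5% (72.4 to 76.4), 76.6% (74.3 to 78.8) and 74.9% (71.9 to 77.7), with intervals that overlap.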
